A study of Ciona savignyi with 56 samples.

Results

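In the 110-cell embryo of the ascidian Ciona savignyi, the secondary notochord precursor B8.6 was compared with its mesenchyme sister B8.5 and with the primary notochord precursors A8.5/6/13/14. The cells were those that the authors' cell table places in these classes in the 3 untreated 110-cell embryos. There were 5 B8.6 cells (1, 2 and 2 in embryos 1, 2 and 3), 6 B8.5 cells (2 in each embryo) and 20 primary notochord cells (8, 4 and 8). These 31 cells were among 297 with a class and 317 in all at this stage, and among 773 in the series. Counts were summed per embryo and class, which gave 9 sums of the 48 that the 16 classes and 3 embryos make, and the embryo was the replicate (n = 3). With 5 cells of B8.6 in all, each embryo's value for this class rests on 1 or 2 cells.

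The ascidian notochord is a rod of vacuolated cells that stiffens the larval tail, and it arises from separate lineages. In ascidian embryos most of it comes from the anterior vegetal A-line (primary notochord), and the tail tip comes from the posterior vegetal B-line (secondary notochord). The B-line mother cell B7.3 divides into B8.6, which makes notochord, and B8.5, which makes mesenchyme. The A-line cells A7.3 and A7.7 are already notochord precursors when they divide. The nerve cord classes A8.7/8 and A8.15/16 descend from the sisters of A7.3 and A7.7, so they are less closely related to the primary notochord cells than B8.5 is to B8.6. In both lineages fibroblast growth factor (FGF) signalling and the T-box factor Brachyury are known to take part in notochord specification.

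The study dissociated single embryos with trypsin, picked each blastomere by capillary and sequenced its polyadenylated RNA by a variant of Smart-seq2, a full-length cDNA protocol, in which primers carry a barcode for each cell. All embryos described here were untreated, from animals collected in the wild, and no genotype or strain was given. The groups were the 3 embryos at the 110-cell stage and, for the mother cells, 3 other embryos at the 64-cell stage, where B7.3 is the mother of B8.6 and B8.5 and A7.3/7 are the mothers of the primary notochord class. The counts of both stages are of unique molecular identifiers (UMIs), tags that mark the copies of 1 molecule. How the authors placed cells in classes is not given in the sources used here. If transcripts were used to place them, the comparisons describe the separation of labelled classes. The files name genes by identifier alone, and 0 of the 85 marker symbols listed for the tissues of the embryo could be matched, so the class labels could not be checked against known markers and no gene symbols are given.

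The depth of the classes differed. B8.5 cells held a median of 90024.5 UMIs, the highest of the 16 classes, while B8.6 cells held 19399 (the fifteenth) and primary notochord cells 19142 (the lowest). Within embryos 1, 2 and 3 the median B8.5 cell had 4.82, 3.77 and 5.06 times the UMIs of the median B8.6 cell, a difference in 3 of 3 embryos for which the exact two-sided sign-flip test gave p = 0.25, the smallest it allows. B8.6 and primary notochord did not differ in this measure beyond the spread between embryos (exact sign-flip p = 1). Per the labels, equal amounts of cDNA were pooled, so UMIs per cell do not measure a cell's RNA. At the 64-cell stage the mother B7.3 held a median of 52894 UMIs per cell (the fourth highest of 14 classes). When cells were thinned to 10000 UMIs, B8.6 cells had 3428 ± 17.8 genes (SD, n = 3 embryos), B8.5 cells 3606 ± 87.8 and primary notochord cells 3459 ± 77.3 (exact sign-flip p = 0.25 and 0.5). The 47 barcodes of this stage all occur in more than 1 of its 15 libraries, and B8.6 and B8.5 cells lay together in 2 libraries. The part of shared libraries and barcodes in the results was not tested.

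**Figure D1:**
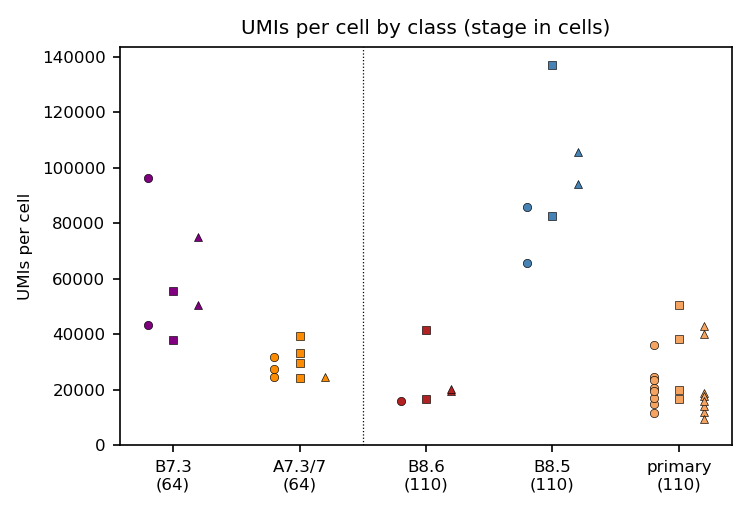
UMIs per cell (vertical axis) of the mother classes at the 64-cell stage and of B8.6, B8.5 and primary notochord at the 110-cell stage. Each point is a cell, and circles, squares and triangles are embryos 1, 2 and 3 of the stage. Every B8.5 cell lies above every B8.6 and every primary notochord cell.

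The depth sets what B8.6 can show. A single UMI in the B8.6 sum of embryo 1 (15709 UMIs) was worth 55.5 CPM (counts scaled to 1000000 per sum, with TMM), and 16.4 and 24.2 CPM in embryos 2 and 3 (58352 and 39508 UMIs). In B8.5 a single UMI was worth 4.39 to 6.83 CPM (151392 to 219823 UMIs per sum), and in primary notochord 5.78 to 7.77 CPM (125545 to 170823 UMIs). A value of 0 in embryo 1 of B8.6 therefore leaves room for a level that would be plainly counted in B8.5.

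The first comparison asked which genes separate the notochord daughter of B7.3 from its mesenchyme sister. Of 5159 genes tested, 13 were higher in B8.6 and 1 was lower (adjusted p under 0.05 by edgeR's quasi-likelihood test with embryo as block and Benjamini-Hochberg adjustment), which is 0.271% of the genes tested (0.252% higher and 0.0194% lower). At an unadjusted p under 0.05 there were 466 genes. The fit estimated the spread of each gene over all 16 classes, so its p-values do not rest on the spread of B8.6 alone. The 13 higher genes had log2 fold changes of 1.22 to 4.99, and 8 of them were at their highest mean level of all 16 classes in B8.6. The genes were chosen for high B8.6 sums, so this rank follows in part from the choice. The share of all genes tested with that rank was not computed. In 7 of the 13 the sum of B8.6 was above that of B8.5 in all 3 embryos. In the other 6 embryo 1 or embryo 2 of B8.6 held 0 or 1 UMI.

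ENSCSAVG00000002247 was high in both notochord lineages and low in every other class. Its level in B8.6 was 55.5, 525 and 604 CPM in embryos 1, 2 and 3, against 13.7, 35.1 and 14.5 CPM in B8.5 and 276, 505 and 780 CPM in primary notochord. The B8.6 value of embryo 1 is that of a single UMI. B8.6 lay above B8.5 in each embryo, with a log2 fold change of 4.22 ± 0.64 (SE; adjusted p = 8.8e-06 by edgeR with Benjamini-Hochberg adjustment). All 5 B8.6 cells and all 20 primary notochord cells held a UMI of it, against 4 of 6 B8.5 cells, which were sequenced more deeply. The highest mean in a class other than notochord was 24.7 CPM, in the nerve cord class A8.15/16, where it came from embryo 2 alone (0, 74.0 and 0 CPM).

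ENSCSAVG00000006265 had the smallest adjusted p of the comparison. B8.6 held 889, 870 and 991 CPM, B8.5 held 273, 255 and 204 CPM, and primary notochord held 473, 497 and 312 CPM. The groups do not overlap, and B8.6 was the highest of all 16 classes. Its log2 fold change over B8.5 was 1.90 ± 0.27 (SE; adjusted p = 1.5e-06 by edgeR with Benjamini-Hochberg adjustment). This gene was the only one of the 14 that was called in each of the alternatives tried other than thinning to equal depth.

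Other genes that were high in both notochord lineages and low in B8.5 were ENSCSAVG00000002241 and ENSCSAVG00000008768. ENSCSAVG00000002241 stood at 167, 755 and 459 CPM in B8.6, 61.4, 96.6 and 14.5 CPM in B8.5 and 258, 404 and 456 CPM in primary notochord (log2 fold change over B8.5 3.12 ± 0.51, adjusted p = 5.3e-05). ENSCSAVG00000008768 stood at 278, 722 and 846 CPM in B8.6, 157, 119 and 102 CPM in B8.5 and 344, 396 and 913 CPM in primary notochord (2.59 ± 0.48, adjusted p = 3.3e-04). In each gene the lowest B8.6 sum, that of embryo 1, was still above every B8.5 sum. Of the classes other than notochord, the endoderm class A7.1/2/5,B7.1/2 had the highest mean of both genes, at 254 and 365 CPM. The endoderm class was the highest of the classes other than notochord for 6 of the 13 genes. The share of all genes tested for which this held was not computed, so the count is not read as a trait of the 13.

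The largest fitted fold changes belonged to genes with few molecules in B8.5. ENSCSAVG00000008064 had 0, 24 and 2 UMIs in the B8.6 sums and 1, 1 and 1 in the deeper B8.5 sums, which is 0, 394 and 48.3 CPM against 6.83, 4.39 and 4.85 CPM (log2 fold change 4.99 ± 0.86, adjusted p = 1.1e-04). All 24 UMIs of embryo 2 came from 1 of its 2 cells, the deepest B8.6 cell (41588 UMIs), and the other cell held 0. ENSCSAVG00000008065 had 6, 0 and 10 UMIs in B8.6 and 1, 2 and 2 in B8.5 (3.98 ± 0.79, adjusted p = 0.0013). ENSCSAVG00000003097 had 0, 27 and 6 UMIs in B8.6 and 0, 5 and 4 in B8.5 (3.94 ± 0.68, adjusted p = 1.1e-04), and 24 of the 27 came from that same cell. In these genes 1 embryo of B8.6 had no molecule, so the groups overlap. ENSCSAVG00000008065 was highest in the muscle class B8.15/16 (371 CPM), so it was not confined to notochord.

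ENSCSAVG00000002246, ENSCSAVG00000004839 and ENSCSAVG00000003020 each had 1 UMI in the single B8.6 cell of embryo 1. ENSCSAVG00000002246 stood at 55.5, 1149 and 653 CPM in B8.6 and at 137, 224 and 38.8 CPM in B8.5 (2.53 ± 0.46, adjusted p = 2.6e-04). ENSCSAVG00000004839 stood at 55.5, 1067 and 242 CPM against 68.3, 158 and 116 CPM (2.15 ± 0.40, adjusted p = 3.9e-04). ENSCSAVG00000003020 stood at 55.5, 804 and 1765 CPM against 164, 255 and 223 CPM (2.09 ± 0.41, adjusted p = 9.5e-04). In embryo 1 the direction was the opposite in all 3 genes, at a level of 1 molecule.

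Smaller differences on higher levels were seen for ENSCSAVG00000002305, ENSCSAVG00000008741 and ENSCSAVG00000010250. ENSCSAVG00000010250 stood at 389, 542 and 822 CPM in B8.6 and 287, 246 and 267 CPM in B8.5 (1.22 ± 0.27, adjusted p = 0.0086), and primary notochord held 497, 606 and 612 CPM. ENSCSAVG00000002305 stood at 222, 854 and 701 CPM against 191, 338 and 150 CPM (1.51 ± 0.37, adjusted p = 0.030), and ENSCSAVG00000008741 at 278, 295 and 1209 CPM against 171, 202 and 267 CPM (1.45 ± 0.31, adjusted p = 0.0035). Only in ENSCSAVG00000010250 and ENSCSAVG00000008741 did the 3 sums of B8.6 lie above all 3 of B8.5. ENSCSAVG00000002305 was highest in posterior epidermis (612 CPM) and ENSCSAVG00000008741 in the germline class B7.6 (620 CPM).

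The gene that fell in B8.6 was ENSCSAVG00000007825. It stood at 222, 197 and 266 CPM in B8.6, 560, 641 and 635 CPM in B8.5 and 503, 520 and 658 CPM in primary notochord. B8.6 was the lowest of all 16 classes, and its range does not overlap that of either comparison class. The log2 fold change was -1.45 ± 0.30 against B8.5 (adjusted p = 0.0018) and -1.33 ± 0.30 against primary notochord (adjusted p = 0.038). The mother B7.3 held 540, 353 and 479 CPM in the 64-cell embryos.

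**Figure D2:**
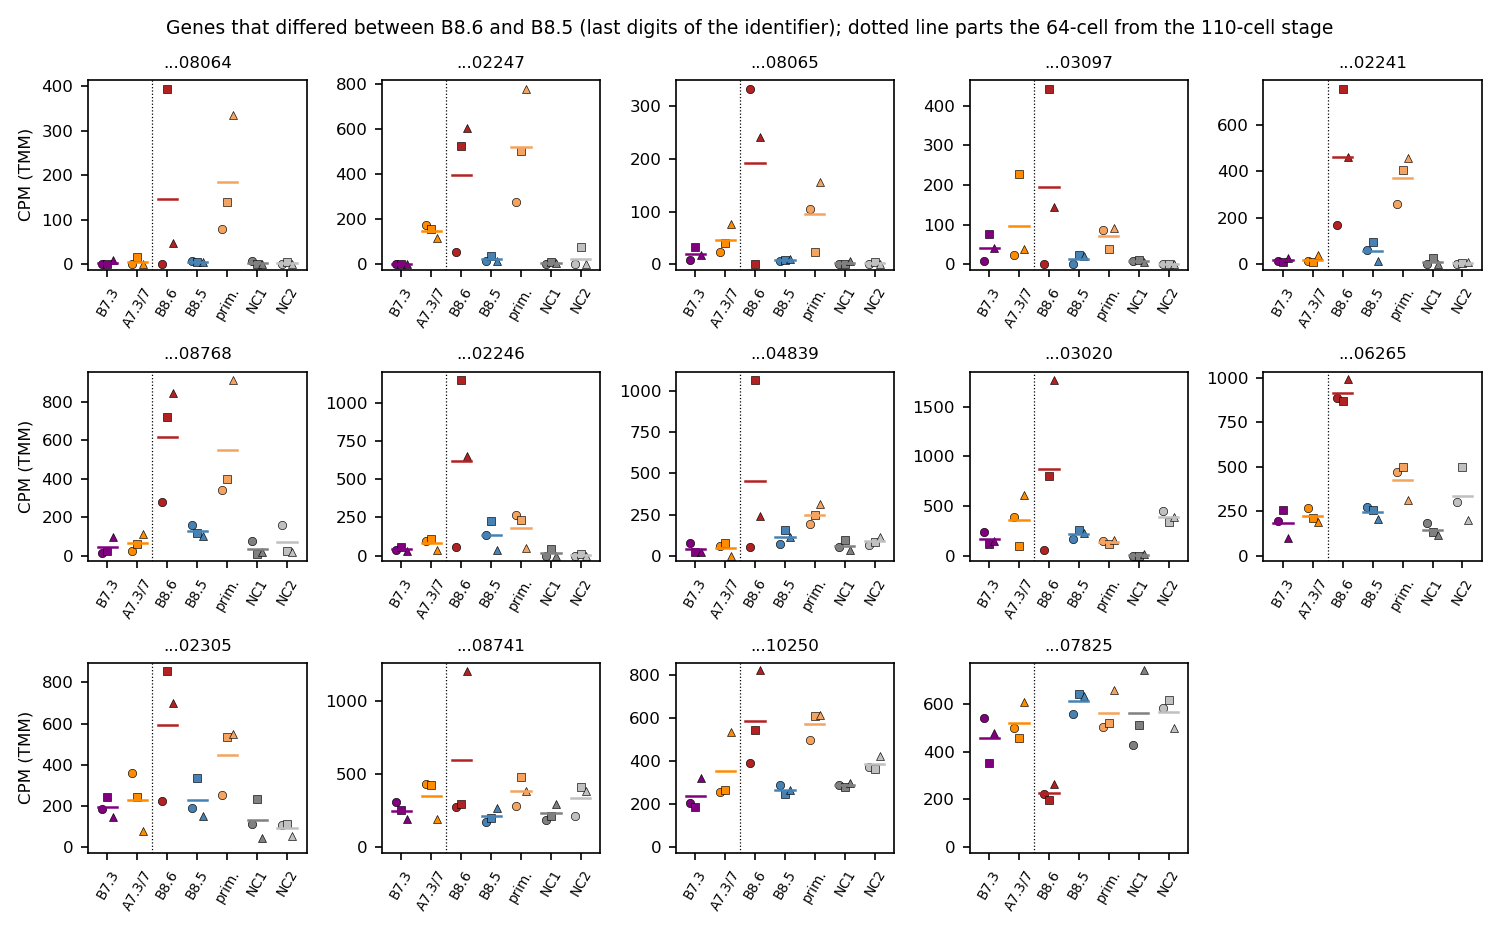
Level in CPM (vertical axis, linear, scaled by TMM) of the 14 genes that differed between B8.6 and B8.5, in the mother classes at the 64-cell stage and in B8.6, B8.5, primary notochord (prim.) and the nerve cord classes A8.7/8 (NC1) and A8.15/16 (NC2) at the 110-cell stage. Circles, squares and triangles are embryos 1, 2 and 3 of the stage, and bars are means. B8.6 and primary notochord are high and B8.5 is low in most panels, with the circle of B8.6 often the lowest of its 3 points.

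These calls depend on the embryos and the depth. Without embryo 1, 12 of the 13 higher genes were still called, and without embryo 2 or embryo 3 it was 6 each. When the B8.6 and B8.5 sums were thinned to the 15709 UMIs of the smallest, 0 genes were called by edgeR (278 at an unadjusted p under 0.05). The sums of the other classes kept their full depth in that fit, and the larger B8.6 sums lost molecules too. The 13 higher genes kept their sign there and had an unadjusted p under 0.05. DESeq2, run on the unthinned sums, still called 7 of the 13. ENSCSAVG00000007825, the lower gene, lost the call after thinning, without embryo 2 (adjusted p = 0.465) and in a fit of B8.6 and B8.5 alone.

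Whether like genes separate notochord from a related class in both lineages was read from sums that share no cells, though they come from the same embryos and 1 fit. In the A-line the related class is nerve cord, which is not the sister of the primary notochord cells. Primary notochord was compared with the mean of the nerve cord classes A8.7/8 and A8.15/16. In that contrast 49 genes were higher in notochord and 34 lower, 1.61% of the genes tested (0.95% higher and 0.659% lower). Of the 34 lower genes, 17 lie in 1 run of neighbouring identifiers around the most abundant gene, and a fit without the run called 48 higher and 16 lower. Of the 13 genes higher in B8.6 than in B8.5, 11 were also called higher in primary notochord than in nerve cord, which is 84.6% of the 13 and 22.4% of the 49. Without embryo 3 the contrast of primary notochord and nerve cord called 54 genes in place of 83. The exceptions to the overlap were ENSCSAVG00000003020 and ENSCSAVG00000008741. The gene lower in B8.6 was not among the 34 lower genes of the primary lineage.

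In ENSCSAVG00000002247 the log2 fold change of primary notochord over nerve cord was 5.34 ± 0.52 (adjusted p = 4.5e-13), beside 4.22 for B8.6 over B8.5. In ENSCSAVG00000002241 it was 5.85 ± 0.56 (adjusted p = 9.9e-14) beside 3.12, and in ENSCSAVG00000008768 3.66 ± 0.42 (adjusted p = 6.6e-11) beside 2.59. In ENSCSAVG00000006265 it was 0.92 ± 0.22 (adjusted p = 0.0044) beside 1.90. The test of the difference between the B-line and A-line contrasts was passed by 7 genes. This is 0.136% of those tested (0.0582% higher and 0.0775% lower in the B-line contrast), and none of the 4 genes above was among the 7. ENSCSAVG00000003020 was high in one nerve cord class (447, 336 and 392 CPM in A8.15/16) and nearly absent in the other (0, 0 and 19.8 CPM in A8.7/8), with 147, 116 and 156 CPM in primary notochord.

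The 49 genes higher in primary notochord were chosen without B8.6 or B8.5. Of these 49, 42 had a log2 fold change above 0 in B8.6 over B8.5, with a median of 1.45, whereas 43.2% of all genes tested were above 0, with a median of -0.09. In embryos 1, 2 and 3 separately, 27, 38 and 39 of the 49 were higher in B8.6. Of all 5159 genes tested, 1861, 2321 and 2181 were higher in B8.6 in those embryos. The 38 genes of this list that were not called in B8.6 over B8.5 had a median log2 fold change of 1.19, with 31 above 0. Of the 34 genes lower in primary notochord, 9 were above 0 in B8.6 over B8.5, with a median of -0.27, and 0 were called.

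Cell by cell the 49 genes gave a like picture. Their summed level, per cell and without TMM, was 8339 to 17241 CPM in the 5 B8.6 cells (median 12581), 4233 to 5852 CPM in the 6 B8.5 cells (median 4844) and 7556 to 17497 CPM in the 20 primary notochord cells (median 10592). Every B8.6 cell lay above every B8.5 cell and within the range of primary notochord. Per embryo, the sum was 8339, 15732 and 12909 CPM in B8.6 and 4835, 5732 and 4409 CPM in B8.5. In the nerve cord it was 2171 to 4327 CPM in the 11 cells of A8.7/8 and 2371 to 4603 CPM in the 11 cells of A8.15/16. Before the division, the 6 B7.3 cells of the 64-cell embryos held 2900 to 4653 CPM and the 8 cells of A7.3/7 held 4596 to 8123 CPM.

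A mesenchyme counterpart was taken from other cells as well, after the data had been seen. In B7.7, the other mesenchyme class, 26 genes were higher than in the muscle class B8.15/16 and 71 were lower (0.504% and 1.38% of the genes tested, 1.88% in all). The summed level of the 26 overlapped between B8.5 and B8.6. Of the 26, 13 were above 0 in B8.6 over B8.5, with a median of 0.05, and the 2 called were higher in B8.6 (ENSCSAVG00000002246 and ENSCSAVG00000003097). Their summed level was 2061, 2689 and 2285 CPM in B8.5, 1719, 5518 and 3113 CPM in B8.6, 2200, 2828 and 2447 CPM in primary notochord and 5735, 5945 and 5581 CPM in B7.7. Within each embryo B8.5 lay below primary notochord by a small margin and below B7.7 by a large one, while B8.6 lay below B8.5 in embryo 1 and above it in embryos 2 and 3. The lists chosen in the A-line and in B7.7 have 8 genes in common, so they are not separate evidence.

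**Figure D3:**
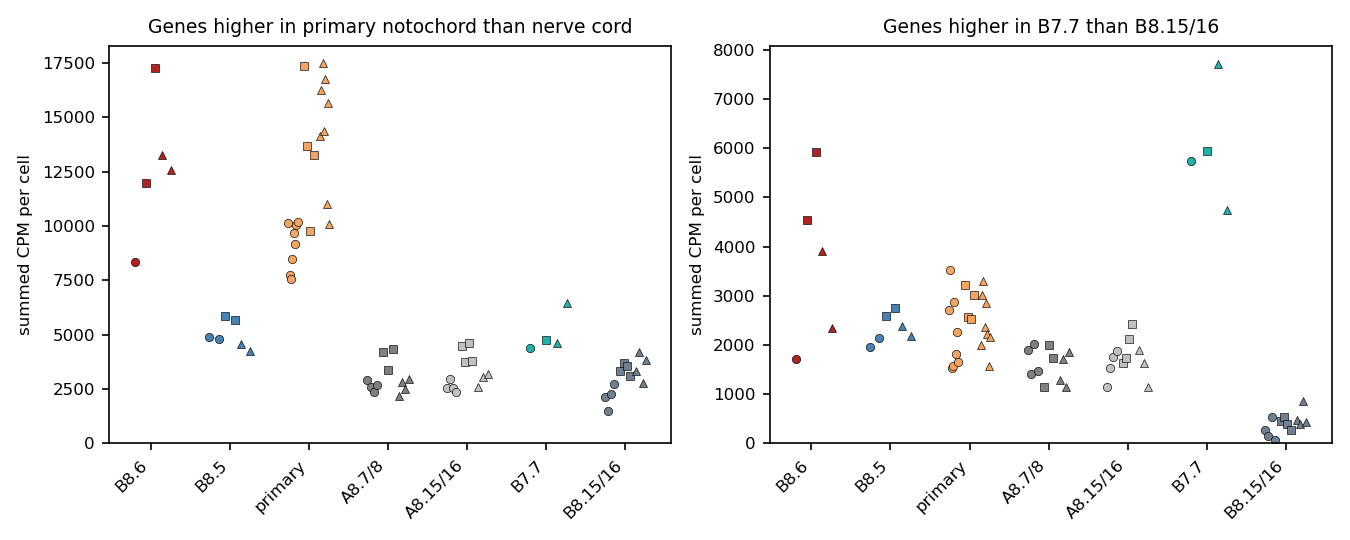
Summed level per cell (vertical axis, CPM, linear) of the 49 genes higher in primary notochord than in nerve cord (left) and of the 26 genes higher in B7.7 than in B8.15/16 (right), at the 110-cell stage. Each point is a cell, and circles, squares and triangles are embryos 1, 2 and 3. On the left B8.6 lies with primary notochord and above B8.5, and on the right B8.5 lies among B8.6 and primary notochord, below B7.7. Primary notochord and nerve cord (left) and B7.7 and B8.15/16 (right) chose the genes.

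**Figure D4:**
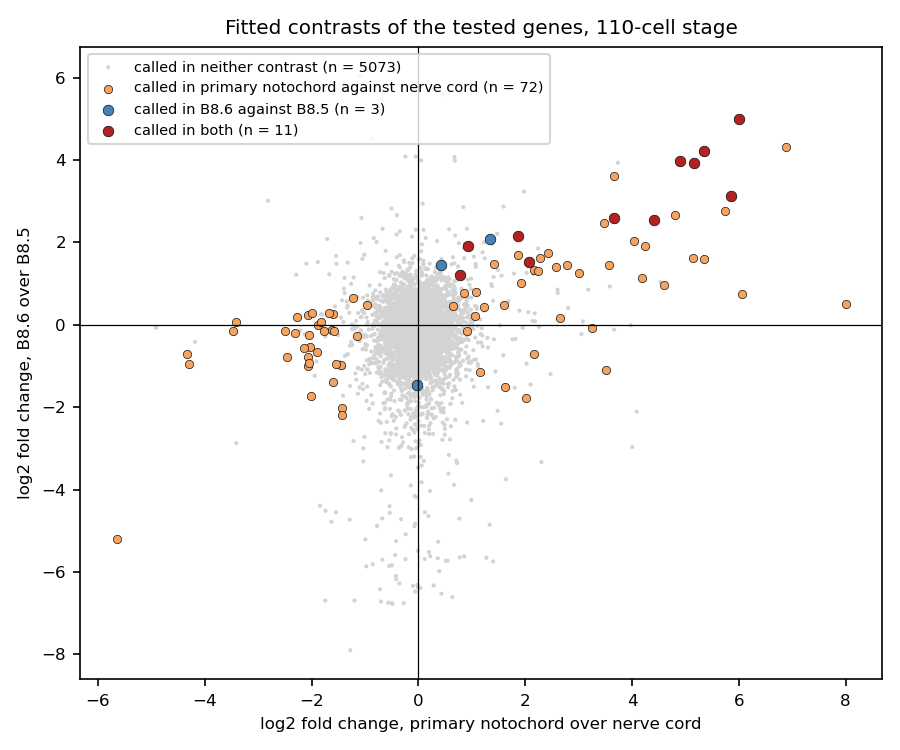
Log2 fold change of B8.6 over B8.5 (vertical axis) against that of primary notochord over nerve cord (horizontal axis) for the 5159 genes tested, with the genes called in one or both contrasts coloured. The 11 genes called in both lie in the upper right, and most of the 49 genes at the right lie above 0 on the vertical axis.

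The second comparison asked how the B-line notochord precursor differs from those of the A-line. Of 5159 genes, 5 were higher in B8.6 than in primary notochord and 3 were lower, 0.155% of the genes tested (0.0969% higher and 0.0582% lower), and 373 had an unadjusted p under 0.05. Both comparisons use the B8.6 sums, so their calls are not independent. Some genes that separated the sisters were not called here: ENSCSAVG00000002247 had a log2 fold change of -0.41 ± 0.48, ENSCSAVG00000008064 -0.09 ± 0.54 and ENSCSAVG00000010250 0.12 ± 0.25 over primary notochord.

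The 5 higher genes include ENSCSAVG00000006265, ENSCSAVG00000003020 and ENSCSAVG00000002246, whose levels are given above. ENSCSAVG00000006265 was higher in B8.6 by a log2 fold change of 1.09 ± 0.26 (adjusted p = 0.045), with no overlap of the groups. ENSCSAVG00000003020 was higher by 2.67 ± 0.44 (adjusted p = 7.6e-05) and ENSCSAVG00000002246 by 2.10 ± 0.46 (adjusted p = 0.024), in both cases through embryos 2 and 3. ENSCSAVG00000006066 stood at 55.5, 575 and 96.7 CPM in B8.6 and 73.7, 38.8 and 46.2 CPM in primary notochord (2.38 ± 0.57, adjusted p = 0.045). The call rested on 35 UMIs in embryo 2, 33 of them from 1 cell, and without that embryo the log2 fold change was 0.45 (adjusted p = 0.956).

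ENSCSAVG00000011320 and ENSCSAVG00000000017 were called between the lineages at both stages, and each call was lost without 1 of the embryos. ENSCSAVG00000011320 stood at 55.5, 65.7 and 387 CPM in B8.6 and 24.6, 15.5 and 23.1 CPM in primary notochord (log2 fold change 2.87 ± 0.67, adjusted p = 0.043). The B8.6 value of embryo 1 is that of a single UMI. B8.5 held 68.3, 193 and 189 CPM, so the gene was not limited to the notochord daughter, and its highest mean was in the muscle class B8.15/16 (424 CPM). In the 64-cell embryos the mother B7.3 held 195, 331 and 66.0 CPM and A7.3/7 held 11.7, 0 and 0 CPM (5.48 ± 0.90, adjusted p = 6.0e-05). The B-line groups lay above the A-line groups without overlap at both stages. The call was lost at 110 cells without embryo 3 (log2 fold change 1.38, adjusted p = 0.830) and at 64 cells without embryo 2 of that stage (3.91, adjusted p = 0.130).

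ENSCSAVG00000000017 went the other way. It stood at 167, 16.4 and 0 CPM in B8.6 and 276, 1118 and 751 CPM in primary notochord (-4.51 ± 0.74, adjusted p = 7.6e-05). B8.5 held 75.1, 127 and 4.85 CPM, and primary notochord was the highest of the 16 classes. In the 64-cell embryos B7.3 held 30, 0 and 57.8 CPM and A7.3/7 held 466, 228 and 114 CPM (-3.23 ± 0.61, adjusted p = 5.4e-04). The A7.3/7 value of embryo 3 of that stage is 3 UMIs in 1 cell. At 110 cells the call was lost without embryo 2 (log2 fold change -3.32, adjusted p = 0.305) and by DESeq2 (adjusted p = 0.274), and at 64 cells without embryo 1 of that stage (adjusted p = 0.154). ENSCSAVG00000009120 was lower in B8.6 than in primary notochord at 110 cells (0, 49.2 and 0 CPM against 221, 194 and 144 CPM; -2.88 ± 0.69, adjusted p = 0.045). The 3 UMIs of B8.6 for this gene were all in embryo 2.

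**Figure D5:**
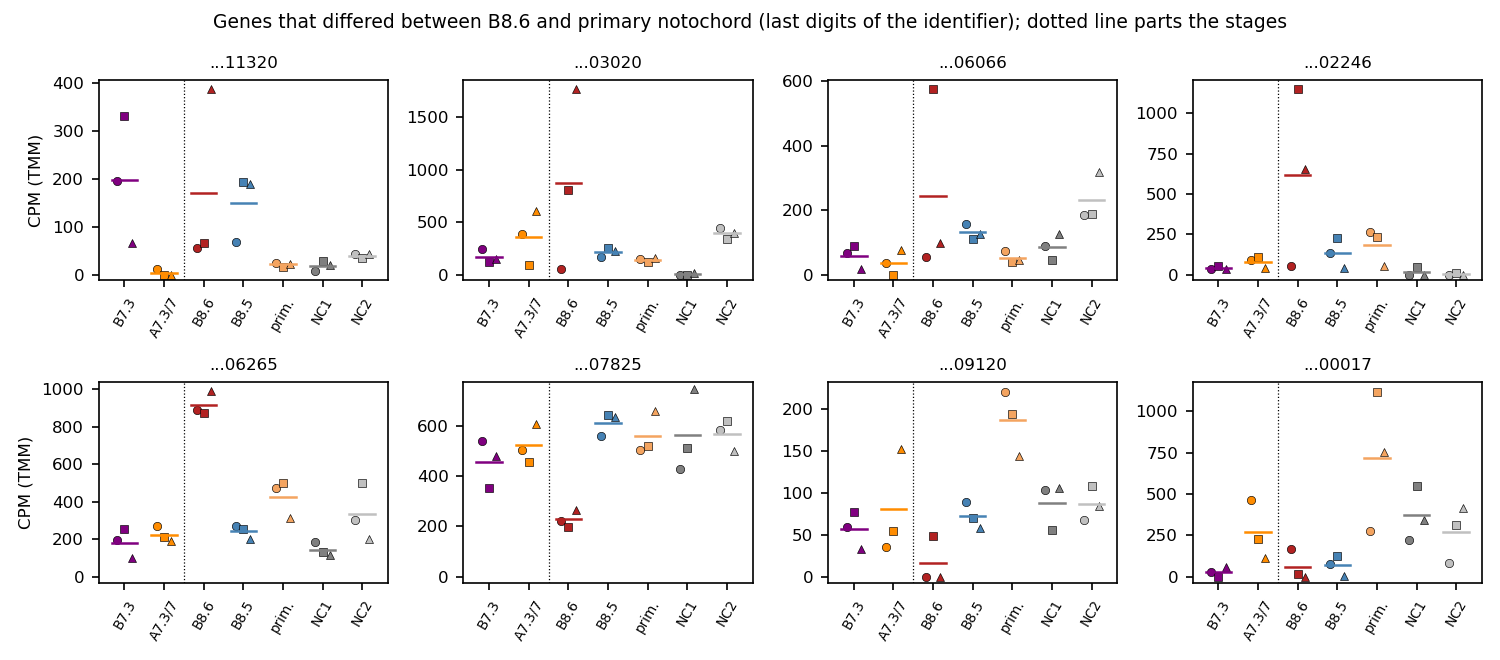
Level in CPM (vertical axis, linear, scaled by TMM) of the 8 genes that differed between B8.6 and primary notochord, by class and embryo as labelled for the genes that differed between sisters. The B-line mother B7.3 and both its daughters lie above the A-line notochord class of the same stage in the first panel (ENSCSAVG00000011320). In the last (ENSCSAVG00000000017) they lie below the A-line notochord class of the same stage.

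The calls against primary notochord were few and moved with the fit. Without embryo 3, 1 gene was called, and ENSCSAVG00000003020, ENSCSAVG00000002246, ENSCSAVG00000006265, ENSCSAVG00000006066 and ENSCSAVG00000011320 lost the call, as did ENSCSAVG00000007825 and ENSCSAVG00000009120. Without embryo 2 only ENSCSAVG00000003020 and ENSCSAVG00000011320 of the 8 were still called, and all 3 lower genes lost the call. Without embryo 1 ENSCSAVG00000006265, ENSCSAVG00000007825 and ENSCSAVG00000009120 lost it. Without the embryo block 0 genes were called by edgeR (331 at an unadjusted p under 0.05), and 0 after thinning to equal depth (274 at that level), while DESeq2 with the block called 4. All 8 genes kept their sign in every alternative in which they were tested. After thinning, 2 of the 5 higher genes and 3 of the 3 lower genes had an unadjusted p under 0.05 by edgeR.

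The mothers of both lineages were compared in the 64-cell embryos. B7.3 and A7.3/7 differed in 41 of 5162 genes (33 higher and 8 lower in B7.3), 0.794% of those tested. Without embryo 1 or 2 of that stage 7 and 15 genes were called, 5 after thinning to equal totals and 2 without the embryo block. Of the 33, 12 lie in the run of neighbouring identifiers, which holds 42 genes. At 110 cells this run took 1.70% to 6.13% of the UMIs of a B8.6 sum, 2.60% to 5.97% in B8.5 and 2.67% to 5.08% in primary notochord, and its part in the calls between the mothers was not tested beyond leaving it out, which gave 26 calls. ENSCSAVG00000008177 stood at 187, 221 and 157 CPM in B7.3 and at 0 in all A7.3/7 sums, at least 15.0-fold higher against a floor of 3 UMIs over the group. At 110 cells it stood at 300, 176 and 112 CPM in B8.5, 0, 131 and 0 CPM in B8.6 and 36.8, 0 and 0 CPM in primary notochord, and it was highest in B7.7 (1016 CPM). The B8.6 and B8.5 levels of this gene overlap, and it was not called between the sisters (adjusted p = 0.445).

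The genes that differed between the mothers were then read in B8.6 over primary notochord. Of the 21 genes higher in B7.3 outside the run, 11 were above 0 in B8.6 over primary notochord, with a median of 0.06 against -0.08 for all genes, and 1 was called (ENSCSAVG00000011320). Of the 8 lower genes, 7 were below 0, with a median of -0.78, and 1 was called (ENSCSAVG00000000017). In all, 1 of 33 and 1 of 8 genes of the 64-cell lists were called in the same direction at 110 cells, in other embryos, where 0.0969% of all genes tested were called higher and 0.0582% lower.

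The genes higher in B8.6 than in B8.5 were not called higher in the mother B7.3 than in A7.3/7. Of the 12 of these 13 genes that were tested at 64 cells, 1 was above 0 in B7.3 over A7.3/7, against 49.9% of all genes tested. ENSCSAVG00000002247 was called, as lower in B7.3, where 0.155% of all genes tested were called lower. This gene was at 0 in the 3 B7.3 sums and at 175, 157 and 114 CPM in A7.3/7, at least 17.1-fold lower in B7.3. The A7.3/7 value of embryo 3 is 3 UMIs in 1 cell. The call was lost without embryo 1 or 2 of that stage (adjusted p = 0.133 and 0.0686). At 110 cells it was then present in B8.6, at a level that overlapped primary notochord. ENSCSAVG00000006265 stood at 195, 254 and 99.0 CPM in B7.3, a range that overlaps its B8.5 levels and lies below its B8.6 levels.

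A placement of B8.6 between B8.5 and primary notochord was made per embryo from genes chosen in the other 2 embryos without B8.6. For the 50 genes highest in primary notochord over B8.5, B8.6 lay 49.9%, 74.3% and 39% of the way from B8.5 to primary notochord in embryos 1, 2 and 3 (54.4% ± 18.1, SD, n = 3), where 0% is the B8.5 level and 100% the primary notochord level. Endoderm lay at 67.0% ± 5.74 on the same genes and the muscle class B8.15/16 at -45.8% ± 12.2. The nerve cord class A8.15/16 lay at -21.7%, 37.4% and 38.2% and A8.7/8 at -27.1%, 18.3% and 28.3%, so that in embryo 3 A8.15/16 stood beside B8.6. Endoderm was thus as far along as B8.6 within the spread between embryos. For the 50 genes highest in B8.5 the values of B8.6 were 270%, 68.1% and 160%, and they gave no stable placement. With all sums thinned to equal totals and genes chosen likewise, B8.6 lay at -32.1%, 72.5% and 86.5% on genes high in primary notochord. The placement on those genes was therefore not stable to depth either.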

How the data were processed

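The authors deposited whole-number counts for 12172 genes in 773 cells, with a cell table giving each cell's library, embryo, stage, class and UMI number. In all 317 cells of the 110-cell embryos and all 179 of the untreated 64-cell embryos the deposited count total equals the UMI number. CASAVA 1.8, DESeq2 and Seurat are the tools that the submitters' processing notes list. No aligner, genome build or annotation is named. Columns of 30 cells of earlier stages were not used. The 20 cells of the 110-cell embryos marked low quality were left out.

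Counts were summed per embryo and class and fitted over all classes of a stage with edgeR 4.0.16 in R 4.3.3 (TMM, filterByExpr, quasi-likelihood, embryo as block since sums of an embryo come from the same animal, Benjamini-Hochberg over all genes tested, threshold 0.05). The method was tested on simulated counts with the same spread for every class and no embryo effect. That test therefore does not cover false calls from sums of few cells such as those of B8.6. Alternatives used DESeq2 1.42.0, limma 3.58.1 (prior count 2), RLE scaling, no filter, no block, other sets of sums, and thinned sums. SE is the log2 fold change over the square root of F. Standard deviations, sign-flip tests and placements (pseudocount 10) used scipy 1.17.1, pandas 2.3.3 and numpy 2.4.6 in Python 3.11.15, and matplotlib 3.10.9 drew the figures. Named genes were those called with 1 direction in every embryo (up to 12 per direction), up to 10 called in both the B-line and A-line contrasts and up to 6 in their difference. ENSCSAVG00000003020 and ENSCSAVG00000006066 fell outside this rule and were named after their values were seen, as was B7.7 against B8.15/16 as a comparison. The classes, lists and tests were chosen with earlier results of these data known. The SE carries the spread between sums that the fit estimated over all classes of a stage, most of them with more cells than B8.6. It does not measure the spread of B8.6 alone. The SD is over embryos. Floors cover counting error only.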

Additional observations from a re-analysis of the deposited data

Results flagged for a closer look

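For 7 genes the contrast of the B-line (B8.6 over B8.5) differed from that of the A-line (primary notochord over nerve cord) by the test of the difference itself. They are 0.136% of the 5159 genes tested (edgeR with Benjamini-Hochberg adjustment). When any 1 of the 3 embryos was left out 2 genes were called, and without embryo 2 these were 0 of the 7. Values are the B-line log2 fold change minus that of the A-line.

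In 3 genes that are high in primary notochord the B-line contrast was the smaller. ENSCSAVG00000005332 had a difference of -5.31, with 167, 65.7 and 96.7 CPM in B8.6, 47.8, 61.4 and 48.5 CPM in B8.5, 153, 326 and 347 CPM in primary notochord and at most 10.6 CPM in any nerve cord sum. ENSCSAVG00000003890 had a difference of -7.49, a fitted value with no finite estimate behind it, since both nerve cord classes were at 0 in every embryo. It was at 0 in embryo 1 of B8.6, B8.5 and primary notochord too, and only 3 of 20 primary notochord cells held a UMI of it. ENSCSAVG00000005386 had a difference of -4.60, with 0, 82.1 and 0 CPM in B8.6 and 47.8, 114 and 43.6 CPM in B8.5.

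ENSCSAVG00000007825, the gene that fell in B8.6, had a difference of -1.44. ENSCSAVG00000009036 had a difference of 2.83, with 333, 230 and 72.5 CPM in B8.6, 109, 57.1 and 43.6 CPM in B8.5 and 36.8, 46.6 and 40.4 CPM in primary notochord. ENSCSAVG00000010866 had a difference of 1.88 and ENSCSAVG00000012507, which lies in the run of neighbouring identifiers, 1.57. Both were lower in primary notochord than in nerve cord and did not differ past the threshold between B8.6 and B8.5. No group here held the 4 samples that a search for a sample far from the others needs.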

How the results depend on the processing

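Every call named in the report kept its direction under each alternative in which the gene was tested, but the numbers of calls moved with depth and embryo. The 14 genes that differed between B8.6 and B8.5 became 22 with every gene that had a count, 7 in a fit of these classes alone and 6 to 19 when an embryo was left out. With no replicate block, that is without the pairing of sums by embryo, they became 6. In the fit of these classes alone only 9 of the 13 higher genes passed the filter, of which 7 were called, and the lower gene lost its call. DESeq2 called 13, 8 of them among the 14. Limma-trend on scaled cells called 131, split into 18 higher and 113 lower against 13 and 1, with a median log2 fold change over all genes of -0.21 against -0.09. It kept the call of 4 of the 13 higher genes and of the 1 lower gene. The 8 genes that differed between B8.6 and primary notochord became 4 by DESeq2, 4 in these classes alone, 0 with no replicate block, 93 by limma-trend (4 higher, 89 lower) and 1 to 6 without an embryo. Of the 8, limma-trend kept 1 of the 5 higher genes and 3 of the 3 lower genes. The 83 genes of primary notochord against nerve cord became 45 with no replicate block, 48 by limma-trend, 64 without the run of neighbouring identifiers (48 higher, 16 lower against 49 and 34) and 54 to 70 without an embryo. The 7 genes of the difference became 3 by DESeq2, 15 with every counted gene, 1 with no replicate block, 19 by limma-trend, 18 in these classes alone and 2 without any 1 embryo. The 41 genes of B7.3 against A7.3/7 became 2 with no replicate block, 22 by limma-trend, 26 without the run of neighbouring identifiers and 7 to 34 without an embryo. Thinning to equal totals left 0, 0 and 0 genes in both B8.6 comparisons and the difference (278, 274 and 277 at an unadjusted p under 0.05) and 5 between the mothers. Only the sums of the classes compared were thinned there, and fewer molecules enter such a fit by construction. The placement of B8.6 on genes high in primary notochord was 83.4% by summed CPM in place of 54.4%. After thinning to equal totals it was 42.3% ± 64.8 (SD, n = 3) on those genes, and on genes high in B8.5 -47.7% in place of 166%. At 5000 UMIs per cell B8.6 had 14.3 more genes than primary notochord, against 31.3 fewer at 10000. These last alternatives on placement were added after the data had been seen. The cause of the other shifts was not tested.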

Other observations

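Several of the genes higher in B8.6 than in B8.5 have neighbouring identifiers, a pattern chosen after the values were seen. ENSCSAVG00000002241, ENSCSAVG00000002246 and ENSCSAVG00000002247 stand close together in the numbering, as do ENSCSAVG00000008064 and ENSCSAVG00000008065. All 5 were also called higher in primary notochord than in nerve cord. Other tested genes among these neighbours did not pass: ENSCSAVG00000002248 had a log2 fold change of 0.06 in B8.6 over B8.5, ENSCSAVG00000002240 -0.62, ENSCSAVG00000002237 -0.30 and ENSCSAVG00000008066 -0.33. The files give no coordinates, and whether the transcripts overlap or share reads was not tested.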
